A study of Mus musculus with 4 samples.

Results

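The RNA of liver mitochondria from mice with non-alcoholic steatohepatitis (NASH) was set beside that of db mice, a genetic model of obesity and diabetes. The comparison rests on 2 of the 4 libraries of the series, chosen by their labels, with 1 library per group and therefore no test and no replicate check. NASH is fatty liver with inflammation, cell damage and scarring. In it, macrophages gather around dying, fat-filled hepatocytes, and stellate cells lay down collagen. The db mutation removes the long form of the leptin receptor, and without its signal mice overeat, store fat in the liver and become insulin resistant. Hepatocytes make most plasma proteins on ribosomes bound to the endoplasmic reticulum (ER), a membrane that touches mitochondria and commonly comes along when they are isolated.

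All 4 groups were sampled at postnatal week 7 and carry the strain label C57BL/6J. The NASH library has the genotype label wild type-NASH, and the sources used here do not say which diet or treatment brought about the disease. The genotype label of the db library names a BKS background and the Leprdb mutation, against its strain label of C57BL/6J. Background strain and disease model therefore cannot be told apart in this comparison. The other libraries came from wild-type mice and from ob mice, labelled B6.Cg-Lepob/J, which lack leptin. The sources used here do not give the number or sex of the animals behind a library, or how the mitochondria were purified. The series set out to examine non-coding RNAs of liver mitochondria in models of metabolic disease.

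The NASH library held 529815 counts and the db library 1005915, beside 627890 in wild-type and 1000306 in ob. Of the 37819 features in the table, 10 or more counts were reached by 1238 in NASH and 2895 in db. Levels below are counts per 1000000 (CPM) of a library scaled by TMM, a method that sets libraries to a common level from the bulk of their features. Folds are ratios of scaled counts, and ranges in parentheses are exact binomial 95% intervals that cover counting error only. A count of 0 allowed up to 6.15 CPM in NASH and 2.84 CPM in db, which is the value of 3 counts. Where a library had 0 counts, the fold was taken against that floor and is a lower bound.

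What filled the libraries differed first. The table held 0 features of the mitochondrial chromosome itself, but 9 nuclear features whose transcripts resemble mtDNA genes took 75.5% of the NASH counts and 26.3% of the db counts. Reads of mtDNA genes and of these nuclear copies cannot be told apart in a table of this kind. Gm13340 (chr2:22588103-22589647, mm10), which matches mt-Co1 over 1545 bases at 97.6% identity, held 38.6% of NASH counts and 13.2% of db counts. Gm20594 (chr6:79818031-79818364), which resembles the 16S ribosomal RNA gene mt-Rnr2, held 23.4% and 7.59%. After scaling, the sum of the 9 features was 3.28-fold higher in NASH (3.26 to 3.29), and 8 of the 9 were at least 2-fold higher, beside 18.7% of all features past the filter described below. By share of counts wild-type and ob stood between the 2 libraries, with 53.2% and 28.7% in these features. After scaling their sum was 820036 CPM in NASH, 774731 in wild-type, 250339 in db and 190625 in ob, so ob was then the lowest. Protein-coding features other than these took 11.5% of NASH counts and 57.1% of db counts, and were 4.36-fold lower in NASH as a scaled sum. Outside those 9 features the NASH library had 129834 counts and the db library 741471, so the NASH library measured the remaining genes at a lower depth.

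**Figure D1:**
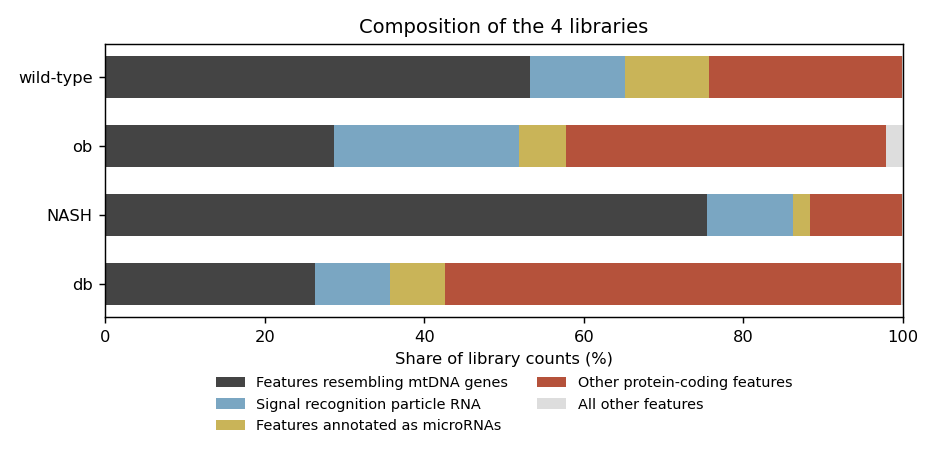
Share of library counts (%) taken by 5 classes of features in the wild-type, ob, NASH and db libraries, 1 library each. Features resembling mtDNA genes took 75.5% in NASH and 26.3% in db, and other protein-coding features 11.5% and 57.1%.

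The filter of 10 or more counts in NASH or db left 3220 features. Of these, 603 (18.7%) were at least 2-fold higher in NASH, 1601 (49.7%) at least 2-fold lower, and 1016 neither, on the log2(CPM + 1) scale. Requiring also a counting interval that leaves out a ratio of 1 kept 552 (17.1%) higher and 1239 (38.5%) lower. Changes of 10-fold or more were found for 72 higher and 646 lower features. The median log2 fold change over all of them was -0.98, and other scalings moved it to between -1.41 and -0.30, so each fold below is relative to the TMM scale. The balance also depends on the filter, since 1982 features passed it through db alone, 325 through NASH alone and 913 through both. Among the 913 the split was 278 higher against 263 lower, with a median of 0.46. With TMM factors taken from the NASH and db libraries alone, 920 features were higher and 1271 lower. A gene that passed through NASH alone had to be higher there. Passing through db alone favoured a lower level in NASH but did not fix it. Timm23, for example, had 9 counts in NASH and 10 in db, a log2 fold change of 0.89. The count of a gene list is therefore given beside these shares and beside its members with 10 or more counts in both libraries.

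**Figure D2:**
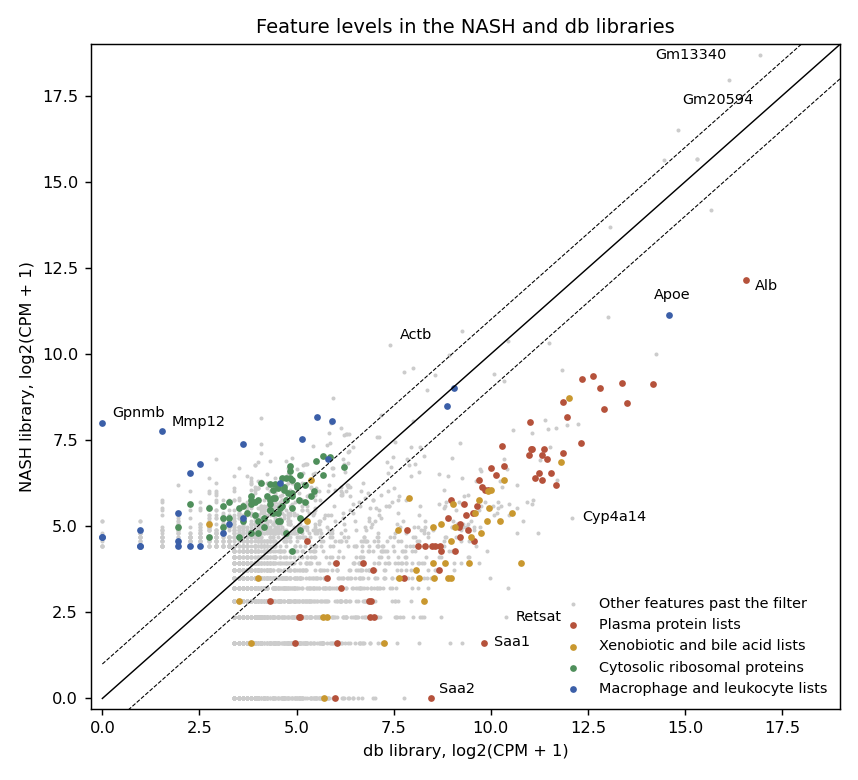
Level of each of the 3220 features past the filter in the db library (x axis) and the NASH library (y axis), both as log2(CPM + 1), with equality as a solid line and 2-fold differences as dashed lines. Most plasma protein and P450 genes lie below the lines, among them Alb and Saa1, while Gpnmb, Mmp12 and most macrophage and leukocyte genes lie above them.

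Among features with 50 or more counts in NASH or db, the 3 largest increases in NASH were genes that activated macrophages express. Gpnmb, a transmembrane glycoprotein of macrophages loaded with lipid (chr6:49036518-49058182), had 125 counts in NASH, 7 in ob and 0 in both db and wild-type. Its level was 256 CPM in NASH and 4.65 CPM in ob, and it was at least 90.2-fold higher in NASH than in db. Mmp12, the macrophage metalloelastase that degrades elastin (chr9:7344381-7369499), had 217 CPM in NASH, 1.89 in db, 0 in wild-type and 11.9 in ob, a 115-fold difference that rests on 2 counts in db (31.0 to 960.1). Clec7a, the receptor dectin-1, had 111 CPM in NASH against 4.73 in db, 11.6 in wild-type and 10.6 in ob (23.4-fold, 9.43 to 74.9). For each of these genes NASH stood above the other 3 libraries, which lay close together at low values. Lpl, the lipoprotein lipase that frees fatty acids from triglyceride-rich particles, had 166 CPM in NASH, 11.4 in db, 9.27 in wild-type and 19.3 in ob (14.6-fold, 7.93 to 29.5).

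All 18 genes of a list of lipid-laden macrophage markers passed the filter, and 15 were at least 2-fold higher in NASH, beside 18.7% of all features. Of these, 12 passed through NASH alone and so had to be higher there. Of the 6 with 10 or more counts in both libraries, 3 were higher and 1 lower, with a median log2 fold change of 0.55, against 0.46 over all features so counted. Lgals3, which encodes the lectin galectin-3, had 92.3 CPM in NASH against 3.79 in db, 4.63 in wild-type and 2.66 in ob (24.4-fold, 8.88 to 93.3). Cd68, a lysosomal membrane protein used to stain macrophages, had 20 counts in NASH and 3 in db (14.4-fold, 4.28 to 75.9). Itgax, the integrin CD11c, had 14 counts in NASH and 1 in db (30.3-fold, 4.61 to 1282). Trem2, the lipid receptor that marks macrophages of diseased liver, had 10 counts in NASH and 3 in db (7.22-fold, 1.86 to 40.8). These last genes have few counts and wide intervals. Ctsd and Ctsb, which encode lysosomal cathepsins, differed by less than 2-fold, at 0.767 and 0.970 of their db level. The 1 lower member was Apoe, an apolipoprotein that hepatocytes make in bulk, at 2251 CPM in NASH, 24795 in db, 11046 in wild-type and 11514 in ob. Apoe held 95.7% of the list's counts in db, and the sum of the other 17 genes was 1.90-fold higher in NASH (1.75 to 2.07).

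Of 15 general leukocyte genes 8 passed the filter, 4 of them through NASH alone, and all 8 were at least 2-fold higher, beside 18.7% of all features. The 4 counted 10 or more times in both libraries had a median of 1.93, and the summed counts of the 15 were 5.40-fold higher in NASH (4.52 to 6.48). Lyz2, lysozyme of macrophages and neutrophils, had 289 CPM in NASH against 45.4 in db, 51.0 in wild-type and 33.9 in ob (6.36-fold, 4.55 to 9.02). Mpeg1, the pore-forming protein perforin-2, had 266 CPM in NASH against 58.7 in db (4.54-fold, 3.33 to 6.25). Ptprc, the pan-leukocyte phosphatase CD45, had 11 counts in NASH and 3 in db (7.94-fold, 2.098 to 44.3). Lymphocyte genes were barely measured, with 10 counts over 12 genes in NASH and 6 in db, and 0 of them passed the filter. Kupffer cell genes, which mark the resident macrophages of the liver, were mixed. Of the 12 that passed, 4 were higher (Hmox1, Marco, Adgre1 and Cd5l), 1 lower and 7 neither, beside 18.7% higher and 49.7% lower over all features. Their median was 0.73. Of the 10 counted 10 or more times in both libraries 3 were higher, beside 278 of the 913 features so counted. Cd163, the hemoglobin scavenger receptor, was the lower one, with 1 count in NASH and 48 in db (22.2-fold lower, 3.79 to 893). Clec4f, a lectin found on Kupffer cells, was 1.75-fold lower in NASH (1.26 to 2.49), and Hmox1, the heme-degrading oxygenase, 9.10-fold higher (4.49 to 20.3). In bulk RNA, more or fewer cells of a type and more or less RNA per cell cannot be told apart.

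The MHC class II genes, which present peptides from outside the cell, were higher in NASH, while genes of the class I route were mixed. Of 9 antigen presentation genes that passed, 4 were higher, 3 lower and 2 neither. Over all features 18.7% were higher and 49.7% lower. Of the 5 counted 10 or more times in both libraries 2 were higher and 2 lower. The 2 within 2-fold were H2-K1 and Tap1, the latter with 4 counts in NASH and 12 in db. H2-Aa, the class II alpha chain, had 123 CPM in NASH against 6.63 in db, 67.2 in wild-type and 29.9 in ob (18.6-fold, 8.48 to 48.1). H2-Ab1, its beta chain partner, had 35 counts in NASH and 3 in db (25.3-fold, 7.96 to 128). H2-Eb1 was 7.65-fold higher (4.25 to 14.6), and Cd74, the invariant chain that guides class II molecules, 4.37-fold higher (3.19 to 6.04). For H2-Aa, H2-Ab1, H2-Eb1 and Cd74 the db library was the lowest of the 4 and NASH the highest. The class I heavy chain H2-D1 was 3.45-fold lower in NASH (2.74 to 4.39), its light chain B2m 2.37-fold lower (1.81 to 3.14), and the peptide transporter subunit Tap2, with 2 counts in NASH and 56 in db, 12.9-fold lower (3.42 to 109). H2-K1 was at 191 CPM in NASH and 139 in db, against 663 in wild-type and 782 in ob. Strains differ in H2 sequence and close copies share reads, so folds of H2 genes are uncertain, and the part of the BKS background in them was not tested.

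The promoters of 2 class II genes and 2 macrophage genes are shown because these genes are among the largest increases and stood highest in NASH together. Each is 300 bases from RefSeq on build GRCm38.p6, from 250 bases before the transcription start to 50 after it, read in the direction of the gene. Capitals mark the CCAAT box (CCAAT on either strand, ATTGG when reversed) in the class II genes and an AP-1 site (TGANTCA) in the macrophage genes.
H2-Aa, chr17:34287774-34288073, minus strand: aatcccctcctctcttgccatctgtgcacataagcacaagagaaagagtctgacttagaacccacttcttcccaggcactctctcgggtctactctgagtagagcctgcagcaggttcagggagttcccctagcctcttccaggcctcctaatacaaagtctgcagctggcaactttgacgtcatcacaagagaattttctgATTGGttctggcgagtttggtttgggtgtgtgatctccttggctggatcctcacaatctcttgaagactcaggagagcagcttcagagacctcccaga
H2-Eb1, chr17:34305617-34305916, plus strand: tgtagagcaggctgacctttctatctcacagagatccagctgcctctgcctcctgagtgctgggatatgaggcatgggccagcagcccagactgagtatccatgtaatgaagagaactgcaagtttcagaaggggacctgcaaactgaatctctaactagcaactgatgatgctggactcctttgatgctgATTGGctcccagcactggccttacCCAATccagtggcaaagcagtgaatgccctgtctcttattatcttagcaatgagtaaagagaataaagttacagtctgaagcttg
Gpnmb, chr6:49036268-49036567, plus strand: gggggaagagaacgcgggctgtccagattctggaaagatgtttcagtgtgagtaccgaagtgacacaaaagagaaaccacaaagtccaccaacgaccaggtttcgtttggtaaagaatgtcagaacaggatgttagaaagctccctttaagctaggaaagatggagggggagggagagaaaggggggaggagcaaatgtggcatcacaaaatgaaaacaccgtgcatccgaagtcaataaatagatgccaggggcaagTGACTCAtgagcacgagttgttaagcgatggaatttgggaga
Mmp12, chr9:7347124-7347423, plus strand: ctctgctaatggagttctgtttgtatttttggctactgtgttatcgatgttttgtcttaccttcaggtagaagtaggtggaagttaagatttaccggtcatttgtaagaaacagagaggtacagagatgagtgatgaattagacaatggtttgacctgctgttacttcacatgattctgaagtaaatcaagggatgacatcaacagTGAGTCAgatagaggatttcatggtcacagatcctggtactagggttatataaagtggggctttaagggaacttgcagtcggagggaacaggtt
The CCAAT box starts at base 203 of the H2-Aa window and at bases 192 and 216 of the H2-Eb1 window, and the AP-1 match at base 259 for Gpnmb and 207 for Mmp12. Both motifs are common, since 37.4% of 32851 mouse promoters of this length hold a CCAAT box and 7.81% an AP-1 match on either strand. Among the 11 leading increases with a promoter in the table, 3 held CCAAT and 2 held AP-1, beside 1 and 1 of 9 leading decreases. TATAAA was held by 2 of the increases and 4 of the decreases, against 13.6% of all promoters. Mmp12 has another annotated start whose window (chr9:7344147-7344446) holds no AP-1 match. That window, and not the printed one, spans the start of the Mmp12 feature counted here, at chr9:7344381.

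Of the 15 largest increases 5 encode actin or proteins that bind it or anchor it. Actb, cytoplasmic beta-actin, had 1238 CPM in NASH against 170 in db, 480 in wild-type and 133 in ob (7.31-fold, 6.17 to 8.68). Tmsb4x, thymosin beta 4, which holds free actin, had 420 CPM in NASH against 60.6 in db, 209 in wild-type and 43.2 in ob (6.94-fold, 5.22 to 9.34). Lcp1, the actin-bundling plastin of leukocytes, was 10.3-fold higher (6.06 to 18.6), Actr3, a subunit of the Arp2/3 complex, 9.84-fold (5.06 to 21.0), and Msn, moesin, 8.54-fold (4.96 to 15.5). For Actb, Tmsb4x, Actr3 and Msn wild-type lay between NASH and the 2 leptin-pathway mutants, and ob lay close to db. Sdcbp, the adaptor syntenin, and Ucp2, an inner mitochondrial membrane carrier found in macrophages, were 7.65-fold (4.25 to 14.6) and 7.58-fold (4.29 to 14.2) higher. Over the 15 increases wild-type lay between NASH and db, or level with db at 0 counts, for 12 and below both for 3, and ob lay between them for 10.

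**Figure D3:**
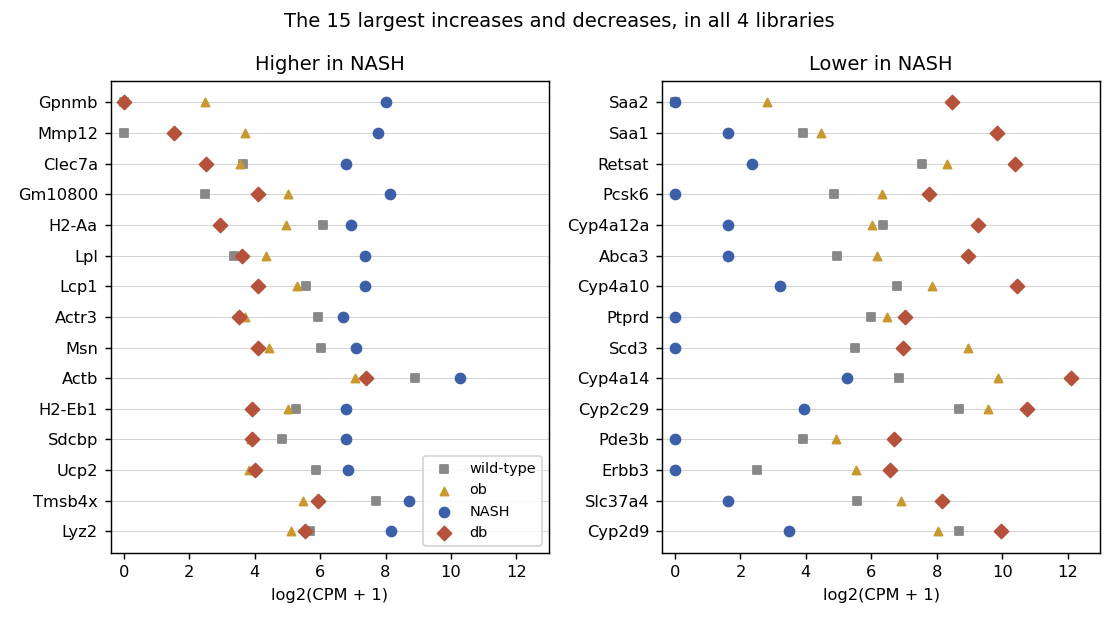
Levels, as log2(CPM + 1), of the 15 features with the largest increase (left) and the largest decrease (right) in NASH against db, among features with 50 or more counts in the higher library, in all 4 libraries, 1 point per library. Wild-type lies between NASH and db, or level with one of them at 0, for 12 of the 15 increases and for all 15 decreases.

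Fibrosis and stellate cell genes gave a mixed picture, with 4 of the 12 that passed higher, 1 lower and 7 neither. Over all features 18.7% were higher and 49.7% lower. The median was 0.39, and between -0.06 and 1.10 over the other scalings. Of the 10 counted 10 or more times in both libraries 3 were higher and 1 lower. The median of these was 0.39, against 0.46 over all features so counted. Vim, the filament protein vimentin, had 84.1 CPM in NASH against 5.68 in db (14.8-fold, 6.25 to 42.6). Col1a1, a chain of type I collagen, had 160 CPM in NASH, 41.6 in db, 16.2 in wild-type and 56.5 in ob (3.84-fold, 2.62 to 5.69), and Col3a1 was 2.52-fold higher (1.87 to 3.41). Col1a2, the partner chain of type I collagen, had 71.8 CPM in NASH and 55.9 in db, a ratio of 1.28 (0.821 to 1.98). Col4a2, a basement membrane collagen whose gene overlaps Col4a1, was 3.19-fold lower (2.01 to 5.31). Of the 11 endothelial genes that passed, 8 through db alone, 9 were lower and 0 higher, beside 49.7% lower over all features, and their median of -1.10 was near the -0.98 of all features. Of the 3 counted 10 or more times in both libraries 2 were lower. Stab2, a scavenger receptor of the liver sinusoid, had 24.6 CPM in NASH and 59.6 in db. Cholangiocyte, adipocyte and pancreas lists had 1, 0 and 0 members past the filter. Hemoglobin and other erythroid genes summed to 11 counts in NASH and 41 in db.

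Genes for plasma proteins made by hepatocytes were far lower in NASH. All 25 secreted hepatocyte proteins, all 30 complement and coagulation factors that passed and 15 of 16 acute phase genes were lower in NASH, beside 49.7% of all features. Among members with 10 or more counts in both libraries, 22 of 22, 20 of 20 and 7 of 8 were lower. Over all features so counted 263 of 913 were lower. The medians over the members that passed were -4.12, -3.97 and -4.06, and no scaling brought any of them above -3.27. The summed counts of these lists were 18.2-fold (17.7 to 18.7), 22.6-fold (21.2 to 24.1) and 19.2-fold (17.4 to 21.3) lower. Alb, serum albumin, was 10.1% of all db counts and 0.420% of NASH counts. Its level was 4562 CPM in NASH against 96571 in db, 38132 in wild-type and 28171 in ob (21.2-fold lower, 20.3 to 22.1). Without Alb the rest of the secreted list was still 15.3-fold lower (14.6 to 15.9). Ttr, the thyroid hormone carrier transthyretin, was 26.5-fold lower (20.9 to 34.2), and Trf, transferrin, 8.38-fold lower (7.47 to 9.44). Gm20425, which overlaps Trf on the same strand, had 501 counts in NASH and 20711 in db, against 304 and 5520 for Trf. Gm20425 was 19.1-fold lower (17.5 to 20.9), and how reads were split between these features was not tested.

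The acute phase genes Saa1 and Saa2, which encode serum amyloid A and climb steeply in inflamed liver, were among the large decreases. Saa1 (chr7:46740501-46742980) had 960 counts in db, 32 in ob, 6 in wild-type and 1 in NASH, which is 909, 21.2, 13.9 and 2.05 CPM (443-fold lower in NASH, 79.4 to 17526). Saa2 (chr7:46751833-46754314) had 370 counts in db, 9 in ob and 0 in wild-type and NASH, at least 56.95-fold lower in NASH. Here the db library stood far above the other 3. The 2 genes are near-identical neighbours on opposite strands, and their reads can be split between them. Hp, haptoglobin, had 340 CPM in NASH against 7759 in db, 1038 in wild-type and 1297 in ob (22.8-fold lower, 19.6 to 26.8). Itih4, an inhibitor heavy chain of the acute phase, was 26.1-fold lower (19.4 to 35.9), and Lcn2, lipocalin 2, 4.42-fold lower (2.03 to 11.4). Steap4, a metalloreductase, was the 1 member under a 2-fold difference.

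Complement C3 had 558 CPM in NASH against 18590 in db, 2589 in wild-type and 2985 in ob (33.3-fold lower, 29.6 to 37.7). C4b, complement C4, was 45.5-fold lower (32.6 to 65.4), with a close copy, C4a, that can share its reads. Fga, a fibrinogen chain, had 170 CPM in NASH against 5117 in db, 3815 in wild-type and 1732 in ob (30.1-fold lower, 24.2 to 37.8). For both C3 and Fga the NASH library was the lowest of the 4. Over the 15 largest decreases of any kind wild-type lay between NASH and db, or level with NASH at 0 counts, in all 15, and ob in 14.

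Most of the 15 largest decreases were enzymes or transporters of membranes. Retsat, the ER enzyme retinol saturase, had 2 counts in NASH and 1411 in db, or 4.10 and 1336 CPM, against 188 CPM in wild-type and 316 in ob (326-fold lower, 90.01 to 2693). Abca3, a lipid transporter, had 1 count in NASH and 524 in db (242-fold lower, 43.2 to 9575), and Slc37a4, which carries glucose 6-phosphate into the ER, had 1 and 300 (138-fold lower, 24.7 to 5489). Pcsk6, a proprotein convertase, had 0 counts in NASH and 229 in db and was at least 35.3-fold lower. Ptprd, a receptor phosphatase, Pde3b, a phosphodiesterase that insulin activates, and Erbb3, a growth factor receptor, also had 0 counts in NASH, with 137, 108 and 100 in db. Among the 1601 lower features 248 had 0 counts in NASH, and 14 of the 603 higher features had 0 in db.

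Fatty acid hydroxylases of the Cyp4a family, classical targets of the fatty acid sensor PPAR-alpha, were prominent among the decreases. Cyp4a14 had 36.9 CPM in NASH against 4365 in db, 114 in wild-type and 942 in ob (118-fold lower, 74.8 to 199.8). Cyp4a10 had 8.20 CPM in NASH against 1394 in db, 109 in wild-type and 232 in ob (170-fold lower, 66.3 to 625). For both, db was the highest library and NASH the lowest, and close copies of these genes can share reads. They dominate the fatty acid oxidation list, of which Cyp4a14 alone held 67.3% of db counts. The mitochondrial enzymes of that list differed less, since Hadhb, the beta subunit of the trifunctional protein, was at 20.5 CPM in NASH and 22.7 in db, and Acadm, medium-chain acyl-CoA dehydrogenase, had 2 counts and 30. In all, 13 of the 21 that passed were lower and 0 higher, beside 49.7% of all features, with a median of -1.38. Of the 21, 18 passed through db alone, and 2 of the other 3 were lower.

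Fat synthesis genes were lower in NASH for 9 of the 12 that passed, beside 49.7% of all features, and 11 of the 12 passed through db alone. The median was -3.38, or -1.97 with counts under 3 set at 3. Scd1, which makes monounsaturated fatty acids, had 26.6 CPM in NASH against 2395 in db, 952 in wild-type and 8571 in ob (89.9-fold lower, 52.5 to 169), and Scd3 had 0 counts in NASH and 132 in db (at least 20.3-fold lower). Srebf1, the lipogenic transcription factor SREBP-1, had 5 counts in NASH and 137 in db (12.7-fold lower, 5.29 to 39.6). Acly, ATP citrate lyase, had 18.4 CPM in NASH and 27.4 in db, a difference within counting error (1.49-fold lower, 0.686 to 3.57). Among lipid droplet and fatty acid uptake genes, 8 of 10 were lower and 1 higher, and of the 5 counted 10 or more times in both libraries 3 were lower and 1 higher. The higher one was Plin2, the coat protein of lipid droplets, at 71.8 CPM in NASH, 25.6 in db, 18.5 in wild-type and 36.5 in ob (2.81-fold, 1.65 to 4.82). Slc27a2, a fatty acid transporter with acyl-CoA synthetase activity, was 61.4-fold lower (35.8 to 116), and G0s2, an inhibitor of fat breakdown, had 0 counts in NASH and wild-type, 57 in db and 50 in ob. Cd36, a fatty acid receptor, had 156 CPM in NASH, 286 in db, 27.8 in wild-type and 224 in ob, so the 3 disease models all stood above wild-type.

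Cholesterol genes were lower for 17 of 20, beside 49.7% of all features, and 16 of the 20 passed through db alone. Of the other 4, 2 were lower. Hmgcs1, a synthase at the start of the pathway, was 1.46-fold lower, within counting error (0.765 to 2.96). Bile acid genes were lower for 9 of 10, and for 3 of the 3 counted 10 or more times in both libraries. Cyp8b1, the sterol 12-alpha hydroxylase, had 14.3 CPM in NASH against 698 in db, 146 in wild-type and 214 in ob (48.6-fold lower, 23.5 to 121), and Slc10a1, the bile acid uptake transporter NTCP, was 46.6-fold lower (19.9 to 144). The reductase Akr1d1 was the exception, with only 3 counts in NASH and 11 in db. In the glucose list 6 of 8 were lower, and 3 of the 4 counted 10 or more times in both, among them Slc2a2, the glucose transporter GLUT2 (26.1-fold, 13.6 to 57.3), and the insulin receptor Insr, with 3 counts in NASH and 137 in db. In the urea and amino acid list 11 of 16 were lower, 9 of the 16 having passed through db alone, and 4 of the other 7 were lower. The list held Cps1, the first enzyme of the urea cycle, at 47.1 CPM in NASH and 1056 in db (22.4-fold lower, 14.8 to 35.5). It also held Glul, glutamine synthetase, at 144 and 80.5 CPM (1.78-fold higher, 1.28 to 2.48).

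Enzymes of drug and foreign compound metabolism were lower for 27 of 31, beside 49.7% of all features, and for 17 of the 19 counted 10 or more times in both libraries, with a median of -3.99 over the 19. Cyp2e1, the ethanol-oxidising P450 of pericentral hepatocytes, had 115 CPM in NASH against 3565 in db, 1191 in wild-type and 916 in ob (31.1-fold lower, 23.9 to 41.2). Cyp2f2, a P450 of periportal hepatocytes, had 34.9 CPM in NASH against 1197 in db, 1082 in wild-type and 853 in ob (34.3-fold lower, 21.4 to 59.1). Cyp2c29 (122-fold lower, 58.9 to 303) overlaps a pseudogene, and P450s of a family share reads. Of 10 pericentral genes 8 were lower, and of 5 periportal genes 3, beside 49.7% of all features. Among those counted 10 or more times in both libraries, 2 of 4 and 3 of 5 were lower, beside 263 of the 913 features so counted. Their medians there were -1.44 and -2.77, against 0.46 over all features so counted. The glutathione transferases stood apart: Gstp1 was 5.78-fold higher in NASH (2.15 to 18.02), Gstm1 at 80.0 and 40.7 CPM, and Gsta3 at 34.8 and 37.9 CPM. Genes of a list of growth-hormone-dependent liver genes were lower for 18 of 18 that passed, beside 49.7% of all features. Of the 18, 12 passed through db alone, and the other 6 had a median of -3.50. In wild-type and ob the members did not move alike, since Cyp2a4 had 4.6 and 179 CPM there. Mup3, a urinary pheromone carrier, had 49.2 CPM in NASH and 1418 in db, against 3711 in wild-type and 366 in ob (28.8-fold lower, 19.3 to 45.1). Mup20 differed by only 2.21-fold (1.94 to 2.52), at 590 CPM in NASH, 1304 in db, 4313 in wild-type and 516 in ob, and Mup copies share reads.

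All 16 ER chaperone and folding genes were lower in NASH, beside 49.7% of all features, and 7 of them passed through db alone. The other 9 had 10 or more counts in both libraries, and 263 of the 913 features so counted were lower. The median of the 16 was -2.88 (-3.30 to -2.22 over scalings), and their sum was 11.3-fold lower (10.2 to 12.6). P4hb, protein disulfide isomerase, had 123 CPM in NASH against 2788 in db, 579 in wild-type and 951 in ob (22.7-fold lower, 17.6 to 29.8). Hspa5, the chaperone BiP, was 8.34-fold lower (6.25 to 11.4). Lysosomal genes were lower for 11 of 19 and higher for 1, near the 49.7% of all features, with a median of -1.25, among the lower ones the membrane protein Lamp1 (6.70-fold, 4.68 to 9.90) and the protease Ctsl (11.3-fold, 7.83 to 17.1).

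**Figure D4:**
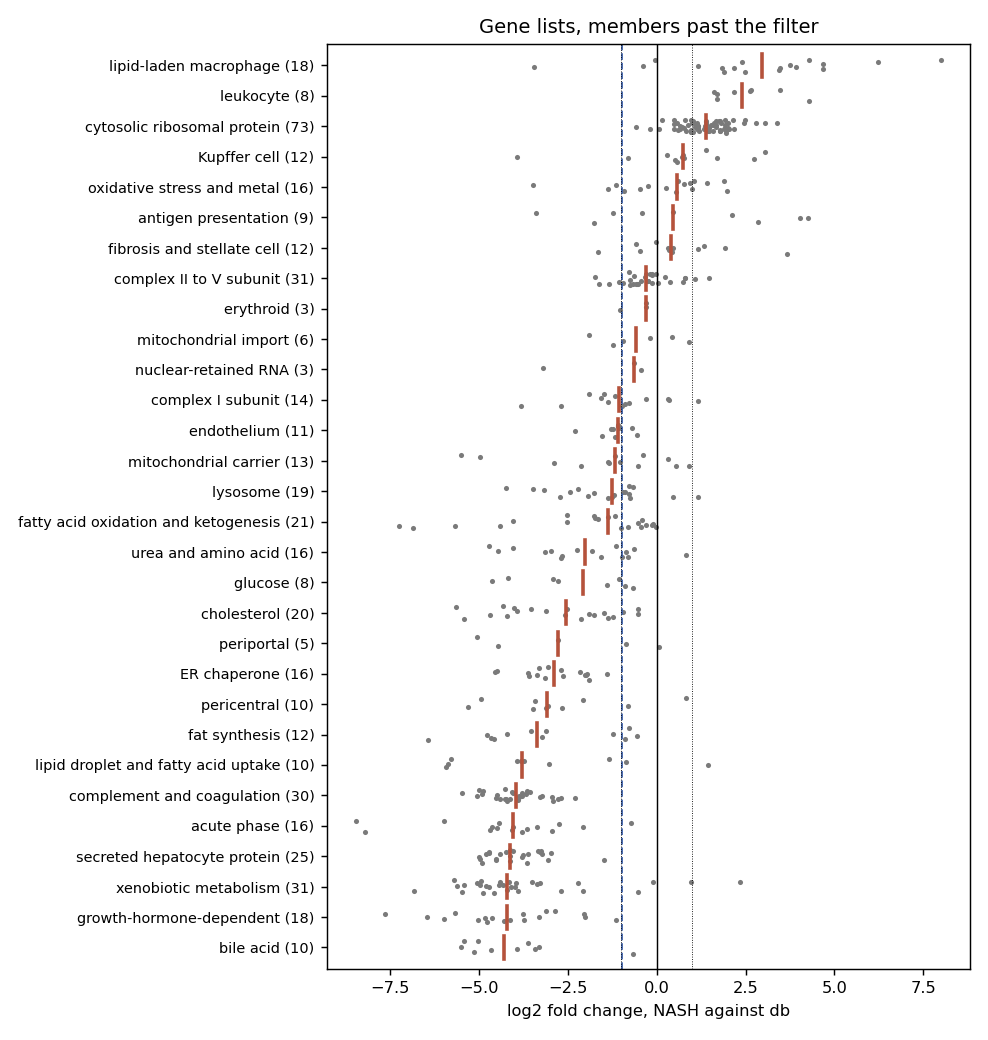
Log2 fold change, NASH against db, of the members of each gene list that passed the filter (grey points, with the number in parentheses) and their median (red bar), with the median of all features as a dashed line and 2-fold differences as dotted lines. Lipid-laden macrophage genes have the highest median, 2.97, with 12 of 18 past the filter through NASH alone, and bile acid genes the lowest, -4.29, with 7 of 10 through db alone.

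Protein-coding features were also grouped by the cell compartment named in the Gene Ontology terms of the deposited table, a grouping chosen after the values were seen. Over all protein-coding features past the filter 49.89% were lower and 18.55% higher, with a median log2 fold change of -0.995. Features with an extracellular term had a median of -3.20 (274 of 354 lower, 23 higher). Those of the ER had -2.49 (336 of 416 lower, 14 higher) and those spanning a membrane -2.21 (743 of 948 lower, 41 higher). Features of the mitochondrion had a median of -0.79 (172 of 386 lower, 44 higher). With 10 or more counts in both libraries the mitochondrion's median was 0.32, against 0.46 over all protein-coding features so counted. Features of the cytosol had a median of 0.43 (90 of 254 higher, 59 lower), of the nucleus 0.31 and of the cytoskeleton 0.78 (30 of 65 higher, 9 lower). Over the other scalings the cytosol's median went from -0.00 to 1.11 and the nucleus's from -0.14 to 0.98, so their sign turns for the nucleus. Any term of the secretory route was held by 1512 features, with a median of -2.21, and none by 1646 with other terms, with a median of 0.04. Among features with 10 or more counts in both libraries these medians were -1.72 over 363 features and 0.82 over 517. The amount of ER RNA in each preparation was not measured, and its part in these differences was not tested. Signal recognition particle RNA, the RNA of the complex that brings such messengers to the ER, took 10.8% of NASH counts and 9.43% of db counts (1.30-fold higher after scaling, 1.29 to 1.31). That direction depends on the scaling, since the ratio was 0.948 with TMM from all features.

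**Figure D5:**
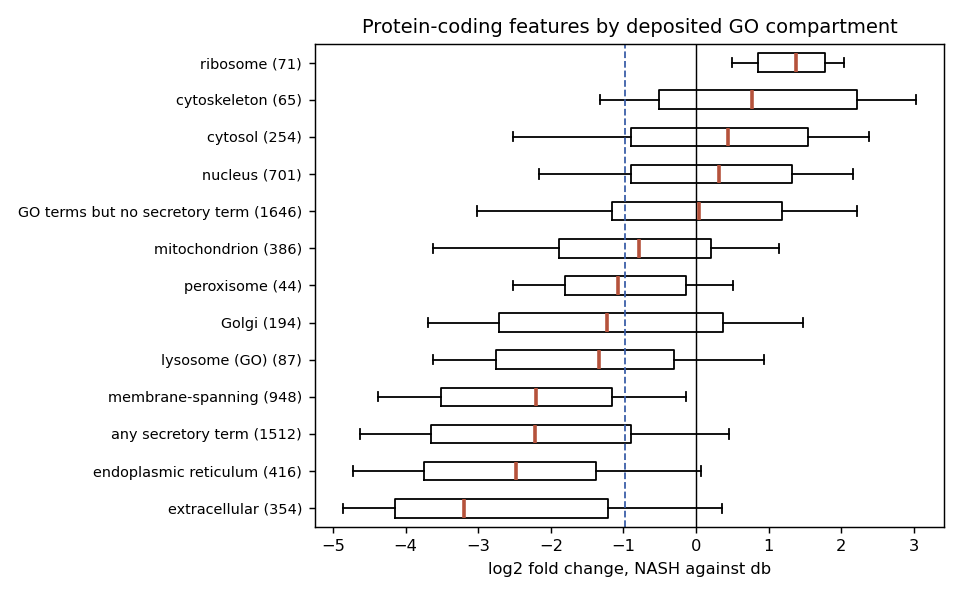
Log2 fold change, NASH against db, of protein-coding features past the filter by Gene Ontology compartment, with the number of features in parentheses; boxes span the middle 50% of features, red bars are medians, whiskers run from the 10th to the 90th percentile, and the dashed line is the median of all features. Extracellular, ER and membrane-spanning features have medians from -3.20 to -2.21, and the ribosome 1.37.

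Genes for the proteins of cytosolic ribosomes were higher in NASH for 52 of the 73 that passed and lower for 0, beside 18.7% and 49.7% of all features. Of the 63 counted 10 or more times in both libraries 43 were higher, beside 278 of the 913 features so counted. The median of the 63 was 1.18, against 0.46 over all features so counted. The median of the 73 was 1.38 (0.94 to 2.08 over scalings), and the sum over 86 genes was 2.46-fold higher (2.304 to 2.62). Rplp0, of the ribosomal stalk, had 127 CPM in NASH against 56.8 in db, 128 in wild-type and 37.9 in ob (2.24-fold, 1.54 to 3.25), so NASH and wild-type stood level above the other 2 libraries. Rpl39, a small protein of the large subunit, had 15 counts in NASH and 3 in db, and Rps21 was the lowest member (1.54-fold lower, 0.712 to 3.69). Ribosomal protein genes have many processed pseudogenes that can share their reads.

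For nuclear-encoded subunits of complexes II to V, 25 of 31 were within 2-fold, 4 lower and 2 higher. Over all features 1016 of 3220 were within 2-fold, 49.7% lower and 18.7% higher. The median of the 31 was -0.31, and other scalings took it from -0.73 to 0.34. Of the 31, 18 passed through db alone. Of the 12 counted 10 or more times in both libraries 2 were lower and 1 higher, with a median of -0.19. Atp5b, the catalytic beta subunit of ATP synthase, had 35 counts in NASH and 83 in db (1.09-fold lower, 0.729 to 1.68). Complex I subunits were lower for 7 of 14 and higher for 1, beside 49.7% and 18.7% of all features. Their median of -1.07 was near that of all features, and 0 of the 14 reached 10 counts in both libraries. Summed over all 36 complex I genes NASH was 1.25-fold lower (1.01 to 1.55), a direction that other scalings turn, and over the 79 mitochondrial ribosomal protein genes, of which 0 passed the filter, the ratio was 1.18 (0.925 to 1.51). Among mitochondrial carriers 8 of 13 were lower, beside 49.7% of all features, and 10 of the 13 passed through db alone. Of the other 3, 1 was lower, and their median was 0.54. Slc25a15, the ornithine carrier of the urea cycle, had 0 counts in NASH and 47 in db (at least 7.23-fold lower), and Slc25a5, the ADP/ATP carrier, 19 and 28. Antioxidant and metal genes were 4 higher, 3 lower and 9 neither, beside 18.7% higher and 49.7% lower over all features. Of the 10 counted 10 or more times in both libraries 3 were higher and 0 lower, beside 278 of the 913 features so counted higher. Among the higher ones Prdx1, a peroxiredoxin, was at 209 and 55.9 CPM (3.74-fold, 2.69 to 5.25). Txnrd1, thioredoxin reductase, was 4.17-fold higher (2.05 to 8.87).

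Nnt encodes the transhydrogenase of the inner mitochondrial membrane, and C57BL/6J mice are known to carry a deletion in it that other C57BL strains and BKS lack. It had 0 counts in NASH, 1 in wild-type, 47 in db and 32 in ob, and was at least 7.23-fold lower in NASH than in db. Gene-level counts do not show which exons were read. The mutated genes were too low to check the labels: Lep had 0 counts in every library, and Lepr had 0 in NASH and wild-type, 2 in db and 4 in ob. The Y-linked gene Ddx3y had counts in all 4 libraries (11 in NASH, 14 in db, 3 in wild-type and 27 in ob) and the X-inactivation RNA Xist had 1 count in wild-type and 0 in the others.

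Among non-coding RNAs, features annotated as microRNAs took a smaller share in NASH, with 2.103% of counts against 6.91% in db. Nearly all of these counts came from 5 features that carry a 57-base repeat, shown here because 3 of the copies are identical and their reads cannot be assigned to a locus.
Gm23935, chr16:11144125-11144181, plus strand: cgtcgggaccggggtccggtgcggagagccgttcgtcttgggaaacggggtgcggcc
Gm25911, chr1:167340369-167340424, minus strand: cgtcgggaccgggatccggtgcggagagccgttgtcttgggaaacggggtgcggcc
Gm24245 and Gm24270 have the sequence of Gm23935, read from the GENCODE M21 transcripts on mm10, and Gm25911 and Gm23388 are variants. Together the 5 had 10772 counts in NASH, 65669 in db, 63780 in wild-type and 56751 in ob. Their summed level was 22085 CPM in NASH, 62166 in db, 147818 in wild-type and 37691 in ob, so NASH was the lowest (2.82-fold lower than db, 2.76 to 2.87, and 1.70- to 3.86-fold over scalings). Gm25911 did not follow that order, at 1320 CPM in NASH, 1383 in db, 5208 in wild-type and 860.7 in ob. Mir5105, another annotated microRNA, had 742 CPM in NASH against 3645 in db (4.91-fold lower, 4.41 to 5.49). Total RNA libraries of this kind read fragments of longer RNAs, and whether these counts came from mature microRNAs was not tested.

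Neat1, the architectural RNA of nuclear paraspeckles, had 5 counts in NASH, 109 in db, 7 in wild-type and 7450 in ob (10.1-fold lower than in db, 4.18 to 31.6). Malat1, another nuclear RNA, had 158 CPM in NASH, 246 in db, 174 in wild-type and 4514 in ob (1.56-fold lower, 1.21 to 2.04, but 1.06-fold higher with TMM from NASH and db alone), so NASH, db and wild-type lay close together and ob far above them. Rmrp, the RNA of RNase MRP, was 3.31-fold lower in NASH (1.99 to 5.87). The 4 small nucleolar features past the filter were copies of U3 with the same counts, 23 in NASH and 13 in db each, and share their reads (3.83-fold higher).

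Gm10800, among the largest increases (chr2:98666547-98667301), belongs with Gm26870 (chr9:3000282-3038313) to 12 features of one repeat, known as the major satellite of mouse pericentromeric chromatin. The 12 were taken after the values were seen, as features that align to Gm26870 over at least 90% of their length. A stretch of 219 bases of the Gm26870 transcript, positions 766 to 984, shows the repeat, with the 99 bases it shares with the reverse complement of Gm10800 in capitals.
Gm26870, chr9, minus strand: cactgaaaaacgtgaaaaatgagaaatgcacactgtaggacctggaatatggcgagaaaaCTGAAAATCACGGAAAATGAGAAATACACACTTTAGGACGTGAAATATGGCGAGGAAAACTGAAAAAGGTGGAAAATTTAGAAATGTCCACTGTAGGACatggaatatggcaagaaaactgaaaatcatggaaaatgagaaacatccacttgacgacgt
Together they had 251 counts in NASH, 36 in db, 4 in wild-type and 104 in ob, which is 514.6, 34.1, 9.27 and 69.1 CPM. The sum was 15.1-fold higher in NASH than in db (10.6 to 22.1), and without Gm10800 it was 12.99-fold higher (7.95 to 22.4). NASH stood above the other 3 libraries, under each of the other scalings 11.01- to 24.96-fold above db. Gm10800 and most of the others are annotated as protein-coding, and the count of repeat reads depends on how reads with several places in the genome were treated, which the sources used here do not state.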

How the data were processed

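Libraries of total RNA from liver mitochondria were made with a directional kit after ribosomal RNA was depleted, per the labels' protocols. Tools named in the submitters' processing notes are TopHat2 2.1.1, Bowtie2 2.3.2, Trimmomatic 0.32 and bcl2fastq 2.20, with build mm10. The counting program, its annotation and its strand setting are not stated there. Per the file headers, the authors deposited raw counts, which hold fractions and so are estimated counts per feature, and TMM-normalized values on a log2 scale, used only as an alternative scaling. Antisense and overlapping genes may share counts.

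Expected counts were rounded. TMM factors (edgeR 4.0.16, R 4.3.3) from features with 10 or more counts in any of the 4 libraries were 0.921 for NASH, 1.05 for db, 0.687 for wild-type and 1.51 for ob. Folds are differences of log2(CPM + 1), called at 2-fold; printed folds are ratios without pseudocount, with exact binomial intervals (Python 3.11.15, scipy 1.17.1), and shares have Clopper-Pearson intervals. Intervals treat reads as independent molecules, which PCR copies are not. The floor was 3 counts per library. Features resembling mtDNA genes were found with blastn 2.17.0 (85% identity over 50% of length). Of the feature IDs 95.3% were in GENCODE M21.

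The members and the 41 gene lists were chosen with earlier results of these data known. The genes named are the 15 with the largest change in each direction (50 or more counts in the higher library), 5 non-coding features each way (20 or more), up to 4 members of a list (20 or more), and Lep, Lepr, Leprot, Nnt, Xist and Y-linked genes; other named genes were chosen after their values were seen. Scripts were tested on simulated data. Some results of the named genes are not reported here.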

Additional observations from a re-analysis of the deposited data

How the results depend on the processing

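No paired analysis was possible because each group has 1 library, and no library could be left out. The median log2 fold change of all features was -1.15 with library totals alone, -0.86 with median-of-ratios size factors, -0.76 with upper-quartile factors, -0.30 with TMM from NASH and db alone, -0.52 with TMM without the features resembling mtDNA genes, -1.24 with the authors' deposited constants and -1.41 with TMM from all features, an alternative added after seeing the data. It was 0.076 with at least 1 count in either library, -3.37 with at least 50, -1.19 with a mean of 10 or more, 0.46 with 10 or more in both libraries (also added after seeing the data), -0.71 with a pseudocount of 5 CPM and -0.68 with counts under 3 set at 3. Features at least 2-fold higher numbered 920 with TMM from NASH and db alone, 4041 with at least 1 count, 49 with at least 50, 400 with a mean of 10 or more and 278 with 10 or more in both. Features at least 2-fold lower numbered 3300 with at least 1 count, 640 with at least 50 and 263 with 10 or more in both. The filters differ in which features they admit, and the cause of the shifts under other scalings was not tested. Of the other 194 results under 1473 alternatives, 957 moved by less than their counting error (a set margin for list medians), 516 moved further. No difference of 2-fold or more changed direction, but 15 results under 2-fold did so under 23 alternatives: 5 named genes, 4 class sums and 6 list medians, such as fibrosis (-0.06) and complexes II to V (0.34). Depth limits features near 3 counts in NASH, where 0 counts allow up to 6.15 CPM.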

Other observations

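Cell cycle, integrated stress and clock genes were hardly covered. Ccnd1, cyclin D1, had 12 counts in NASH, 4 in db, 7 in wild-type and 4 in ob (6.50-fold higher in NASH than in db, 1.97 to 27.6), and Pcna, the sliding clamp of DNA replication, had 10, 8, 6 and 3 (2.71-fold, 0.962 to 7.89). Over 14 integrated stress genes the sum was 22 counts in NASH and 14 in db, and 0 of them passed the filter. Of 14 clock genes 1 passed, Nr1d2, with 6 counts in NASH and 10 in db.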
